A study of Mus musculus with 9 samples.

Results

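The data were examined for 7 genes that mark or drive the trophoblast, the lineage of the placenta: *Gata2*, *Gata3*, *Tfap2a*, *Tfap2c*, *Elf5*, *Hand1* and *Plac1*. They were chosen by name, with earlier results of these data known. Each matched 1 row of a table of 29069 genes measured by RNA-seq in mouse embryonic stem cells. In 6 of the 7, the mean over the 9 samples passed the minimum of 5 normalised counts used for testing, which 18156 genes passed in all. *Plac1* did not pass, and its values are given without a test.

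All samples were of mES-D3, an established mouse embryonic stem cell line adapted to growth without feeder cells and used at passages 5 to 8. The 3 GS (ground state) samples grew in serum-free N2B27 medium with 1 μM PD0325901 (an inhibitor of the kinase MEK), 3 μM CHIR99021 (an inhibitor of the kinase GSK-3) and leukaemia inhibitory factor (LIF) at 20 ng/mL. For the 3 DM samples the cells were placed for 24 h in DMEM with 10% fetal bovine serum, with no inhibitor and no LIF. The 3 NO samples had the same medium for the same 24 h with 250 μM DETA/NO, the nitric oxide donor diethylenetriamine NONOate. DM against GS therefore compares release from both inhibitors and LIF together with a change of basal medium and serum, and NO against DM compares cells with and without the donor. All 3 groups were of 1 cell line, and no sample was labelled as trophoblast.

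In the mouse embryo the first lineage decision separates the inner cell mass, from which embryonic stem cells are derived, from the trophectoderm, which forms the placenta. TEAD4 acts upstream of *Cdx2* and *Gata3* in the outer cells, and CDX2, EOMES, ELF5 and TFAP2C sustain trophoblast stem cells in culture. GATA2 and GATA3 act in trophoblast giant cells, HAND1 drives giant cell differentiation, and *Plac1*, on the X chromosome, encodes a placental protein. None of these factors belongs to the trophoblast alone: GATA2 acts in blood progenitors, GATA3 in T cells, TFAP2A in neural crest and surface ectoderm, TFAP2C in germ cells, ELF5 in the mammary gland, and HAND1 in heart and lateral mesoderm.

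A gene was called where limma gave an adjusted p-value under 0.05 (Benjamini-Hochberg over all 18156 genes) and a log2 fold change of at least 1 in either direction, on the scale of log2(normalised count + 1). Folds come from that log2 fold change, and can differ from the ratio of the mean counts given beside them. From GS to DM, 2 of the 6 tested genes were called lower, *Tfap2c* and *Gata2*, where 1.27% of all tested genes were. None was called higher, and none rose at an unadjusted p under 0.05 either, where 2.94% of all genes were called higher. From DM to NO, *Tfap2c*, *Gata3* and *Hand1* were called higher, 3 of the 6, where 6.78% of all genes were. None was called lower or fell at an unadjusted p under 0.05, where 1.77% of all genes were called lower. From GS to NO, *Hand1* was called higher, where 10.1% of all genes were, and *Gata2* lower, where 1.64% were. The 7 genes were chosen with earlier results of these data known, so the shares beside their calls are descriptions. Over all tested genes, the samples of DM and GS did not overlap in 29.6%, NO and GS in 39.1%, and NO and DM in 33.4%. The 3 comparisons share samples in pairs (GS, DM or NO), so they are not independent of each other. In bulk RNA, fewer cells of a type and less RNA per cell cannot be told apart. Each sample came from a dish of its own, but nothing in the labels names separate cultures, so the p-values measure the spread between these samples.

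**Figure D1:**
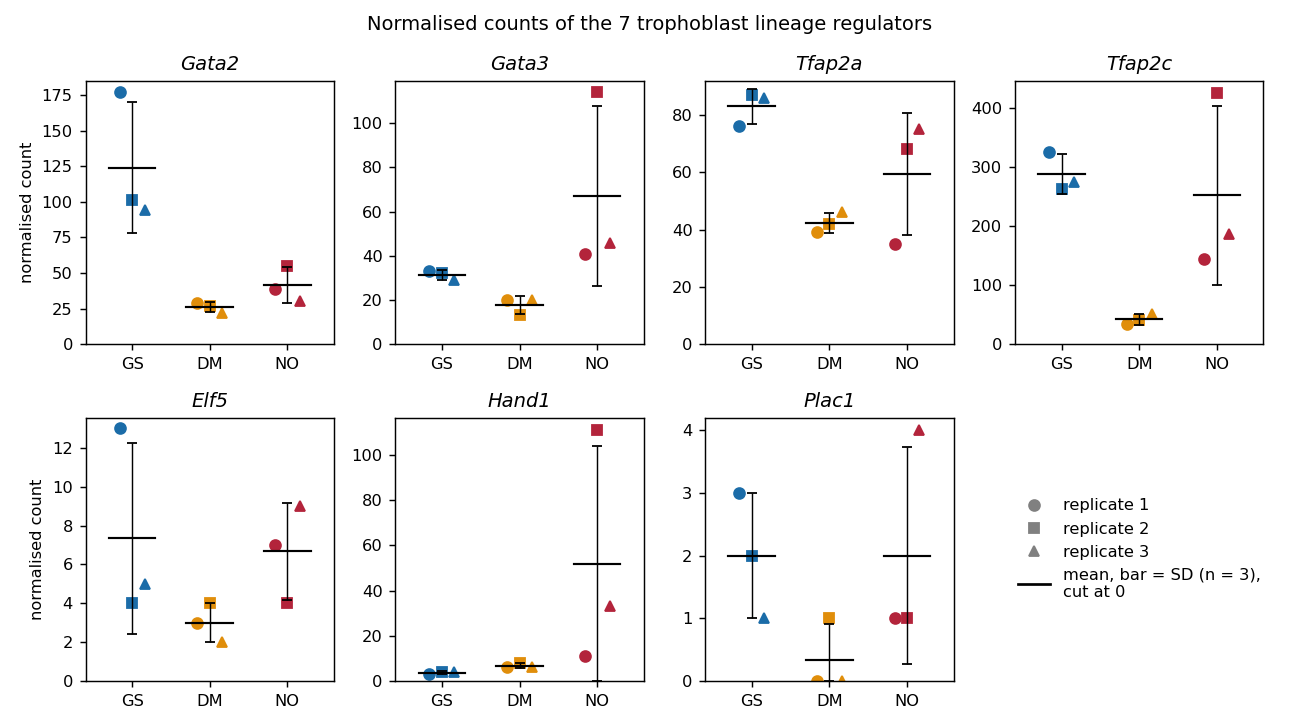
Normalised counts of the 7 genes in each of the 9 samples, on a linear axis that starts at 0 in each panel. Each point is 1 sample, shaped by replicate number, the line is the mean and the bar the SD of 3 samples, cut at 0. *Tfap2c* and *Gata2* in DM lie below every GS sample, and replicate 2 is the highest NO point for *Gata2*, *Gata3*, *Tfap2c* and *Hand1*.

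The estimated reads assigned to genes ranged from 14300000 to 27100000 per sample, so that 1 read was worth between 0.70 and 1.32 normalised counts. The embryonic stem cell markers, *Pou5f1*, *Sox2*, *Nanog*, *Klf4*, *Zfp42*, *Esrrb*, *Tbx3* and *Utf1*, were all expressed in all groups, with summed levels of 72039 to 75349 normalised counts in GS and 68945 to 75404 in DM. Single markers moved in both directions, as given below with the other lists. In NO the sums were 70369, 45833 and 71579, so NO replicate 2 stood below the other 8 samples. Of the 18156 genes, 41.8% had their highest NO value in replicate 2, against 95.4% of the 1231 genes called higher in NO than in DM. Among the 6 tested trophoblast genes it was 4. The calls of these 6 genes that include the NO group are therefore also given without that library, and those of other genes where leaving it out ends them.

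The promoters are shown first, since most of these genes encode factors with known recognition sequences, and the windows show where such letters lie upstream of each start. RefSeq promoter windows (GRCm38.p6, 250 bases before to 50 after a start) were found for *Gata2*, *Gata3*, *Tfap2a*, *Elf5* and *Plac1*, 9 windows for 5 of the 7 genes. *Tfap2c* and *Hand1* had none. Some of the 250-base stretches before a start lie over annotated exons of gene models. The overlap was 250 bases for the *Gata3*, second *Gata2* and first *Elf5* windows, and 242 for the first *Tfap2a* window. For the first *Gata2*, second *Elf5* and first *Plac1* windows it was 0, 6 and 1. Both strands were searched for 4 strings: GATAA (GATA factors), GCCNNNGGC (AP-2), GGAATG (TEAD) and CACCTG (an E-box). Among all 32851 windows, 25.4% held GATAA, 16.6% GCCNNNGGC, 14.7% GGAATG and 20.2% CACCTG. The *Gata3* window held 3 matches to GCCNNNGGC, where 0.44% of all windows held at least 3, and 2 of them fall in the stretch printed here. The fixed letters of that string are all G or C. The same window had 67.3% G and C and 22 CpG pairs, above the medians of 52.7% and 7 over all windows. The 2 *Elf5* windows held CACCTG, 3 matches in the first and 1 in the second, where 0.37% of windows held at least 3. The first *Gata2* window held none of the 4 strings, with 69.3% G and C and 32 CpG pairs against medians of 52.7% and 7 over all windows. These are matches of letters, and binding was not measured. Capitals mark the matches, TTATC being GATAA on the other strand.
Gata2, chr6:88193641-88193890, plus strand, ending 1 base before the start: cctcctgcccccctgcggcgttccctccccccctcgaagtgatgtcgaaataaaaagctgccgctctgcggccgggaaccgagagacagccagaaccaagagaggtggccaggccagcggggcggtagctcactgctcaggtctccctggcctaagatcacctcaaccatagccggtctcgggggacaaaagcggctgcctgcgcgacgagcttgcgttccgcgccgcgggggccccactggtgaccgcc
Gata3, chr2:9878808-9878837, minus strand, 237 to 208 bases before the start: ccctctGCCCTAGGCgGCCCTTGGCggcgc
Elf5 second start, chr2:103423818-103424061, plus strand: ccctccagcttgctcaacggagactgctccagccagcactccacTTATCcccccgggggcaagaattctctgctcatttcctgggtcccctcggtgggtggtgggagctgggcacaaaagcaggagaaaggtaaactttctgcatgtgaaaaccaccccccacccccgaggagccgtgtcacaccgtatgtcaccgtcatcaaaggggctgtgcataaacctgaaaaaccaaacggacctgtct
Plac1 first start, chrX:53240112-53240360, minus strand: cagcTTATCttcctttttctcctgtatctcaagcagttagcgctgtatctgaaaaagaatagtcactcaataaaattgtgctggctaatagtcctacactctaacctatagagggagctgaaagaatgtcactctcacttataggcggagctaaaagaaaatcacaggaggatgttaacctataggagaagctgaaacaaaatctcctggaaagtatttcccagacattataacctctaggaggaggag

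*Tfap2c* encodes AP-2 gamma, a factor of the trophectoderm and also of primordial germ cells. The gene (ENSMUSG00000028640, GRCm38 chr2:172549593-172558622, plus strand) stood at 326, 262 and 275 normalised counts in replicates 1, 2 and 3 of GS. The DM values were 34, 41 and 52, and the NO values 144, 426 and 186. The DM samples lay below all others, and the NO samples spanned the GS range on both sides. From GS to DM the mean went from 287.7 ± 33.8 to 42.3 ± 9.07 (SD, n = 3), a log2 fold change of -2.75 ± 0.34 (SE; adjusted p = 0.000694, limma), or 6.73-fold lower. From DM to NO it rose by 2.405 ± 0.34 (adjusted p = 0.00286), or 5.3-fold, and the NO replicates stood at 3.4, 10.06 and 4.39 times the DM mean. Without NO replicate 2 the rise was 1.95 (adjusted p = 0.00105). Against GS, NO differed by -0.34 (adjusted p = 0.51), with an interval of -1.09 to 0.40 on the log2 scale. Without NO replicate 2 that difference was -0.80 (adjusted p = 0.0436), under the fold change needed for a call.

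*Tfap2a*, which encodes AP-2 alpha, a factor of the surface ectoderm and neural crest as well as of trophoblast, was not called in any comparison. The gene (ENSMUSG00000021359, chr13:40715302-40738376, minus strand) gave 76, 87 and 86 normalised counts in the GS samples, 39, 42 and 46 under DM, and 35, 68 and 75 with NO. All GS samples lay above all DM and all NO samples, and DM and NO overlapped. Between GS and DM the log2 fold change was -0.95 ± 0.29 (adjusted p = 0.0829), from GS to NO -0.55 (adjusted p = 0.211) and from DM to NO 0.41 (adjusted p = 0.374). Of the exon bases of *Tfap2a*, 718 (14.6%) are shared with 3 gene models on the opposite strand. Reads over more than 1 gene were left out by the authors' counting, and whether strand was used is not given in the sources used here.

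*Gata2* encodes a zinc-finger factor of trophoblast giant cells and blood progenitors, and was the second gene to fall on release from GS. The gene (ENSMUSG00000015053, chr6:88193891-88207032, plus strand) gave 177, 101 and 94 normalised counts for GS, 29, 27 and 22 for DM, and 39, 55 and 30 for NO. All GS samples lay above all DM and NO samples, and every NO sample lay above every DM sample. From GS to DM the mean went from 124 ± 46.0 to 26.0 ± 3.61, a log2 fold change of -2.16 ± 0.32 (adjusted p = 0.00202), 4.47-fold lower. NO stayed below GS by -1.54 ± 0.32 (adjusted p = 0.0071), 2.92-fold lower. The rise from DM to NO was 0.61 ± 0.32 (adjusted p = 0.215; interval -0.09 to 1.32) and was not called. GS replicate 1 stood above the other 2 GS samples, and without it the changes were -1.88 (adjusted p = 0.0122) and -1.26 (adjusted p = 0.0345), both still called. Without NO replicate 2, NO against GS was -1.77 (adjusted p = 0.00448).

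*Gata3*, a direct target of TEAD4 in the trophectoderm and a T-cell factor elsewhere, was called only between DM and NO. The gene (ENSMUSG00000015619, chr2:9857078-9890034, minus strand) was measured at 33, 32 and 29 normalised counts (GS), 20, 13 and 20 (DM), and 41, 114 and 46 (NO). The 3 groups did not overlap in any pair, with DM lowest and NO highest, and replicate 2 of NO at more than the sum of the other 2. Between NO and DM, 33.4% of all tested genes did not overlap. From DM to NO the log2 fold change was 1.73 ± 0.39 (adjusted p = 0.0159), 3.32-fold by the fit. The mean counts were 17.7 ± 4.04 in DM and 67.0 ± 40.8 in NO, and the NO replicates stood at 2.32, 6.45 and 2.6 times the DM mean. Without NO replicate 2 the log2 fold change was 1.28 (adjusted p = 0.0364), and without DM replicate 2, the lowest DM sample, 1.54 (adjusted p = 0.0601), which is no longer called. The change from GS to DM was -0.82 (adjusted p = 0.273) and from GS to NO 0.92 ± 0.39 (adjusted p = 0.118; interval 0.07 to 1.77), neither of them called. Of its exon bases, 232 (5.8%) are shared with 2 other gene models.

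*Hand1* encodes a basic helix-loop-helix factor that drives trophoblast giant cells and marks lateral mesoderm. The gene (ENSMUSG00000037335, chr11:57828705-57832818, minus strand) was near 0 in GS, at 3, 4 and 4 normalised counts, and stood at 6, 8 and 6 in DM and at 11, 111 and 33 in NO. The 3 groups did not overlap, and NO replicate 2 held more than the other 8 samples together. The GS values rest on an estimated 2.8, 4.4 and 3.0 reads, so the level there is poorly determined. From GS to NO the log2 fold change was 2.94 ± 0.66 (adjusted p = 0.0102), 7.7-fold, and without NO replicate 2 it was 2.12 (adjusted p = 0.0248), still called. From DM to NO it was 2.23 ± 0.66 (adjusted p = 0.0452, interval 0.78 to 3.68), 4.7-fold by the fit. The mean counts were 6.67 ± 1.15 in DM and 51.7 ± 52.6 in NO, and the NO replicates stood at 1.65, 16.65 and 4.95 times the DM mean. Without NO replicate 2 the log2 fold change was 1.41 (adjusted p = 0.152). *Hand1* lost its call in 8 of the 9 fits that left out 1 sample, all but that without NO replicate 1. The change from GS to DM was 0.71 ± 0.66 (adjusted p = 0.609).

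*Elf5* and *Plac1* were near the limit of detection in every group. *Elf5* (ENSMUSG00000027186, chr2:103411688-103450989, plus strand), which encodes a factor that maintains trophoblast stem cells, gave 13, 4 and 5 normalised counts (GS), 3, 4 and 2 (DM) and 7, 4 and 9 (NO). All 3 groups overlapped, and no comparison was called: -0.94 (adjusted p = 0.393) from GS to DM, -0.02 (adjusted p = 0.983) from GS to NO and 0.91 (adjusted p = 0.292) from DM to NO. *Plac1* (ENSMUSG00000061082, chrX:53069995-53240111, minus strand) gave 3, 2 and 1 (GS), 0, 1 and 0 (DM) and 1, 1 and 4 (NO). These are a few reads in libraries of 14300000 to 27100000, where 3 reads came to between 2.10 and 3.97 normalised counts, and no difference was detectable at this depth.

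**Figure D2:**
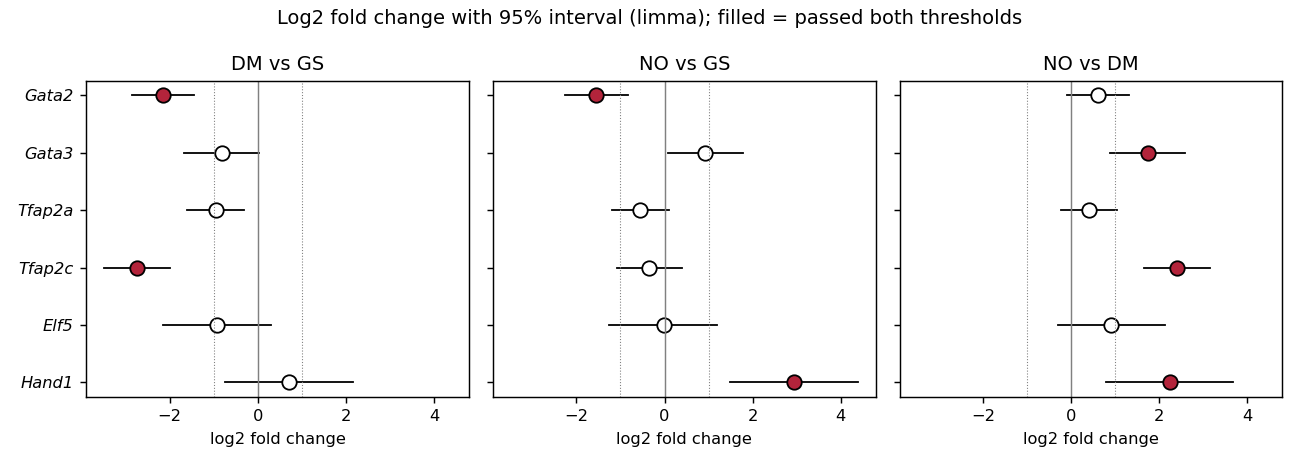
Log2 fold change of the 6 tested genes in each of the 3 comparisons, with the 95% interval of the limma fit; filled points passed the adjusted p-value and fold-change thresholds. *Tfap2c* and *Gata2* are the called points below 0 from GS to DM, and *Tfap2c*, *Gata3* and *Hand1* the called points above 0 from DM to NO.

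Levels were compared between genes per kilobase of exon, as normalised counts divided by the length of all exons of a gene. In GS the order was *Tfap2c* with 78.2 ± 9.19 per kilobase, *Gata2* with 23.0 ± 8.53, *Tfap2a* with 16.9 ± 1.24 and *Gata3* with 7.88 ± 0.52, followed by *Hand1*, *Plac1* and *Elf5* at 1.84, 1.43 and 1.25. *Gata2* and *Tfap2a* overlapped, as did *Hand1*, *Plac1* and *Elf5*. In DM the order was *Tfap2c* with 11.5 ± 2.47, *Tfap2a* with 8.63 ± 0.72, *Gata2* with 4.82, *Gata3* with 4.44 and *Hand1* with 3.34, then *Elf5* with 0.51 and *Plac1* with 0.24. Only the gaps from *Tfap2a* to *Gata2* and from *Hand1* to *Elf5* lay beyond the spread of the samples. In NO the 5 highest were *Tfap2c* with 68.5 ± 41.4, *Hand1* with 25.9 ± 26.3, *Gata3* with 16.8 ± 10.3, *Tfap2a* with 12.1 ± 4.36 and *Gata2* with 7.66 ± 2.35. The ranges of neighbours in this order overlapped over the samples. Within each NO sample *Tfap2c* was nonetheless the highest, with 39.14, 115.79 and 50.56 per kilobase, and *Plac1* and *Elf5* lay below the other 5. Among 17952 genes with a gene model, the level of *Tfap2c* stood above 53.7% of genes in GS, 22.8% in DM and 49.6% after the donor. The level of *Hand1* stood above 6.0%, 9.4% and 32.5%, and that of *Gata2* above 34.2%, 12.7% and 14.2%.

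**Figure D3:**
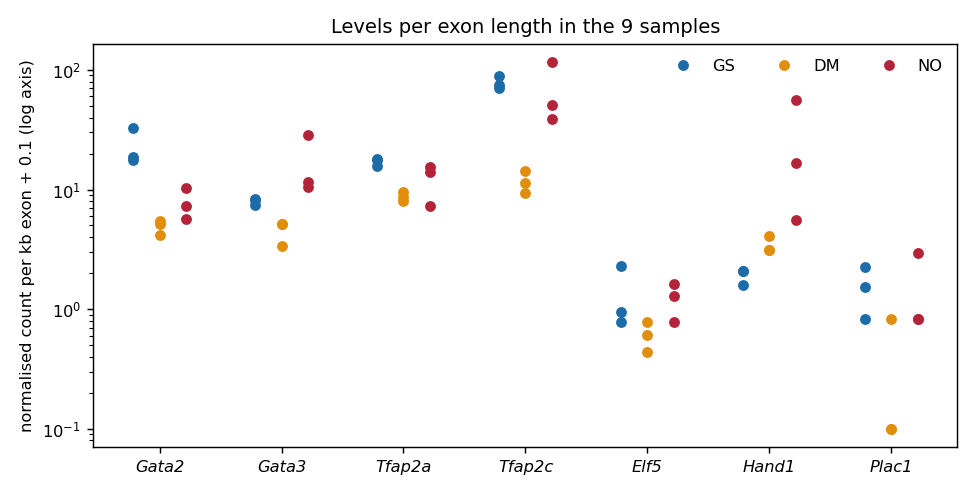
Level of each gene per kilobase of exon in the 9 samples, in normalised counts per kilobase on a log10 axis with 0.1 added; points are samples, coloured by group. *Tfap2c* leads in each group and *Elf5* and *Plac1* are lowest, while *Hand1* is among the lowest in GS and second by its mean in NO.

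The spread inside NO was larger than that inside the other groups for the genes that rose. The ratios of the 3 NO samples to the DM mean ran from 3.4 to 10.06 for *Tfap2c*, from 2.32 to 6.45 for *Gata3* and from 1.65 to 16.65 for *Hand1*. For *Gata2*, which was not called between DM and NO, they ran from 1.15 to 2.12. In these genes replicate 2 was highest, followed by replicate 3 for *Gata3*, *Tfap2c* and *Hand1* and by replicate 1 for *Gata2*. The order 2, 3, 1 was also that of 89.4% of the 1231 genes called higher in NO than in DM, and of 28.7% of all tested genes. For *Tfap2a* the ratios were 0.83, 1.61 and 1.77, with replicate 3 highest. *Elf5* was also highest in replicate 3.

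**Figure D4:**
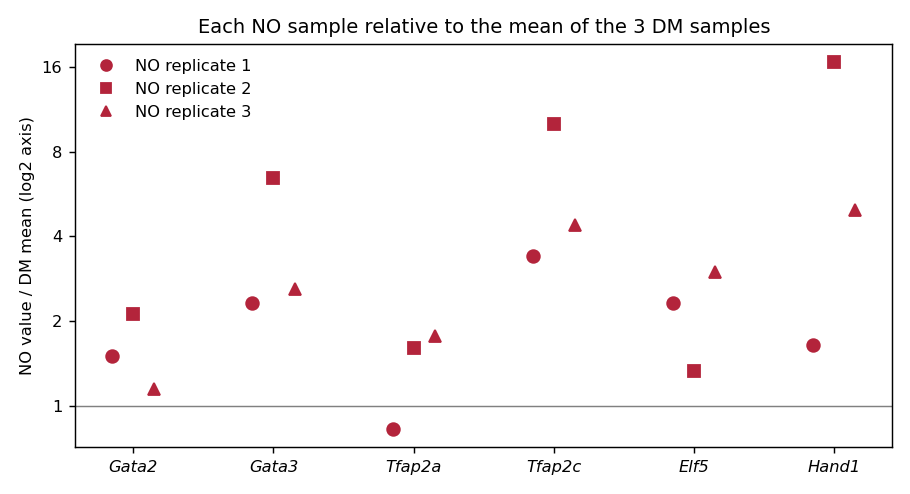
Ratio of each NO sample to the mean of the 3 DM samples for the 6 tested genes, on a log2 axis; points are NO replicates 1, 2 and 3, and the line marks a ratio of 1. Replicate 2 reaches 16.65 for *Hand1*, 10.06 for *Tfap2c* and 6.45 for *Gata3*.

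The pattern over the 9 samples was compared with that of genes with a mean above 50 normalised counts, by Pearson's r of log2 values. Left out were the regulators themselves and rows named as clones, gene models, pseudogenes or mitochondrial genes. The genes most like *Tfap2c* were *Bach2*, *Tmem144* and *Pdzrn3*, with r of 0.984, 0.983 and 0.983. Those most like *Gata3* were *Xirp1* (0.98), *Tinagl1* (0.978) and *Trim68* (0.978), and those most like *Hand1* were *Scrn1* (0.996), *Trappc10* (0.995) and *Npr1* (0.995). For *Gata2* they were *Rcan1* (0.969) and *Gna13* (0.963), for *Tfap2a* *Dlgap1* (0.958), *Mylpf* (0.951) and *Apcdd1* (0.928), and for *Elf5* *Trpv4* (0.893), *Serping1* (0.868) and *Tab1* (0.845). Among the trophoblast genes themselves r was 0.78 for *Gata3* with *Tfap2c* and for *Tfap2a* with *Tfap2c*, 0.76 for *Gata2* with *Tfap2c* and for *Gata3* with *Hand1*, and -0.32 for *Gata2* with *Hand1*. The points are the same 9 samples in 3 groups and share the libraries, so these values are descriptions.

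Of 45 further trophoblast genes in 3 lists, also chosen with earlier results known, 37 were tested. From DM to NO, 9 were called higher and 1 lower, with a median log2 fold change of 0.50 against 0.00 for all tested genes, of which 6.78% were called higher and 1.77% lower. From GS to NO it was 13 higher and 2 lower (median 0.77 against -0.02), beside 10.1% and 1.64% of all genes. Between GS and DM it was 4 and 4 (median 0.27 against 0.00), beside 2.94% and 1.27%. By list, the median from DM to NO was -0.04 for the regulators, 0.81 for the epithelium and 0.67 for placental differentiation. Among the other lists, it was 1.46 for primitive endoderm, 1.27 for surface ectoderm, 1.25 for extraembryonic and lateral mesoderm and 1.08 for neural crest. It was -0.02 for primordial germ cells and -0.15 for embryonic stem cells. Of the 37, 26 were highest in NO replicate 2. Without it, 5 of the 10 calls between DM and NO were kept, and *Cldn4*, *Dlx3*, *Gcm1*, *Id2* and *Mdfi* lost theirs. Of the 15 calls between GS and NO, those of *Cebpb* and *Rhox6* were lost. The count of 10 was 4 without DM replicate 1 or without NO replicate 3, 5 without DM replicate 2, 6 without DM replicate 3 and 17 without NO replicate 1. The count of 8 from GS to DM was 5 without GS replicate 2. *Synb*, *Tpbpa*, *Prl3d1*, *Prl3b1* and *Prl2c2* had no row under these names. *Pparg*, *Ctsq* and *Syna* had rows but no mean above 5, and were not tested. *Pparg* and *Ctsq* were at 0 in 8 samples each. The syncytin gene *Syna* gave 5, 3 and 0 normalised counts (GS), 3, 4 and 16 (DM) and 1, 5 and 8 (NO).

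Among the 9 regulators of the trophectoderm and of trophoblast stem cells, *Cdx2* and *Eomes*, a pair of defining factors of that state, were lower in DM and in NO than in GS. *Cdx2*, the caudal-type factor that represses the pluripotency gene *Pou5f1*, gave 54, 75 and 46 normalised counts (GS), 0, 4 and 0 (DM) and 3, 14 and 5 (NO). On the log2 scale it fell by 5.09 from GS to DM (adjusted p = 0.00115) and fell by 3.03 from GS to NO (adjusted p = 0.011), and the difference of 2.06 from DM to NO was not called (adjusted p = 0.0679). *Eomes*, a T-box factor, gave 229, 308 and 298 (GS), 111, 170 and 122 (DM) and 90, 91 and 118 (NO), and it fell by 1.06 (adjusted p = 0.0148) and 1.47 (adjusted p = 0.00144). *Tead4*, the upstream factor, had 1109 to 1340 in GS and DM and 772 to 1143 in NO, and was not called. *Id2*, an inhibitor of helix-loop-helix factors, rose by 1.87 from DM to NO (adjusted p = 0.0394), with 70, 71 and 51 in DM and 97, 699 and 187 in NO. *Sox21* was called higher than GS in DM (1.23) and in NO (1.04).

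Of the 12 epithelial genes of the trophectoderm, 4 were called higher between DM and NO, with a median log2 fold change of 0.81. *Aqp3*, a water channel, went from 1853, 1767 and 1347 normalised counts in GS to 342, 348 and 437 in DM and 995, 1942 and 1743 in NO. It fell by 2.13 from GS to DM (adjusted p = 0.000336) and rose by 2.00 from DM to NO (adjusted p = 0.00161). *Krt7*, a keratin of trophoblast and simple epithelia, rose by 3.63 (adjusted p = 0.00682), from 12, 11 and 15 to 65, 484 and 146. *Krt19* rose by 2.43 (adjusted p = 0.0269) and *Cldn4*, a tight-junction claudin, by 1.05 (adjusted p = 0.0249). *Cdh3*, which encodes P-cadherin, and *Lgals3*, which encodes galectin-3, were called higher than GS in both DM and NO. Of the 24 genes of placental differentiation, 16 were tested, and 4 were called higher and 1 lower from DM to NO. *Rhox6*, an X-linked homeobox gene, rose by 3.00 (adjusted p = 0.00437), *Gcm1*, which drives syncytiotrophoblast, by 3.10 (adjusted p = 0.0243), *Dlx3* by 2.68 (adjusted p = 0.0379) and *Msx2* by 2.52 (adjusted p = 0.0134). *Mdfi* fell by 1.02 (adjusted p = 0.0282). *Gcm1*, at 2, 3 and 1 (GS) and 3, 2 and 7 (DM) normalised counts, was tested because of its NO values of 12, 146 and 31, so its call is a description. The imprinted genes *Peg10* and *Cdkn1c*, and *Cebpa*, were called in NO against GS, by 1.2, 1.85 and 2.00. *Krt19*, *Cldn4*, *Gcm1*, *Dlx3*, *Msx2* and *Mdfi* were named after their values were seen.

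**Figure D5:**
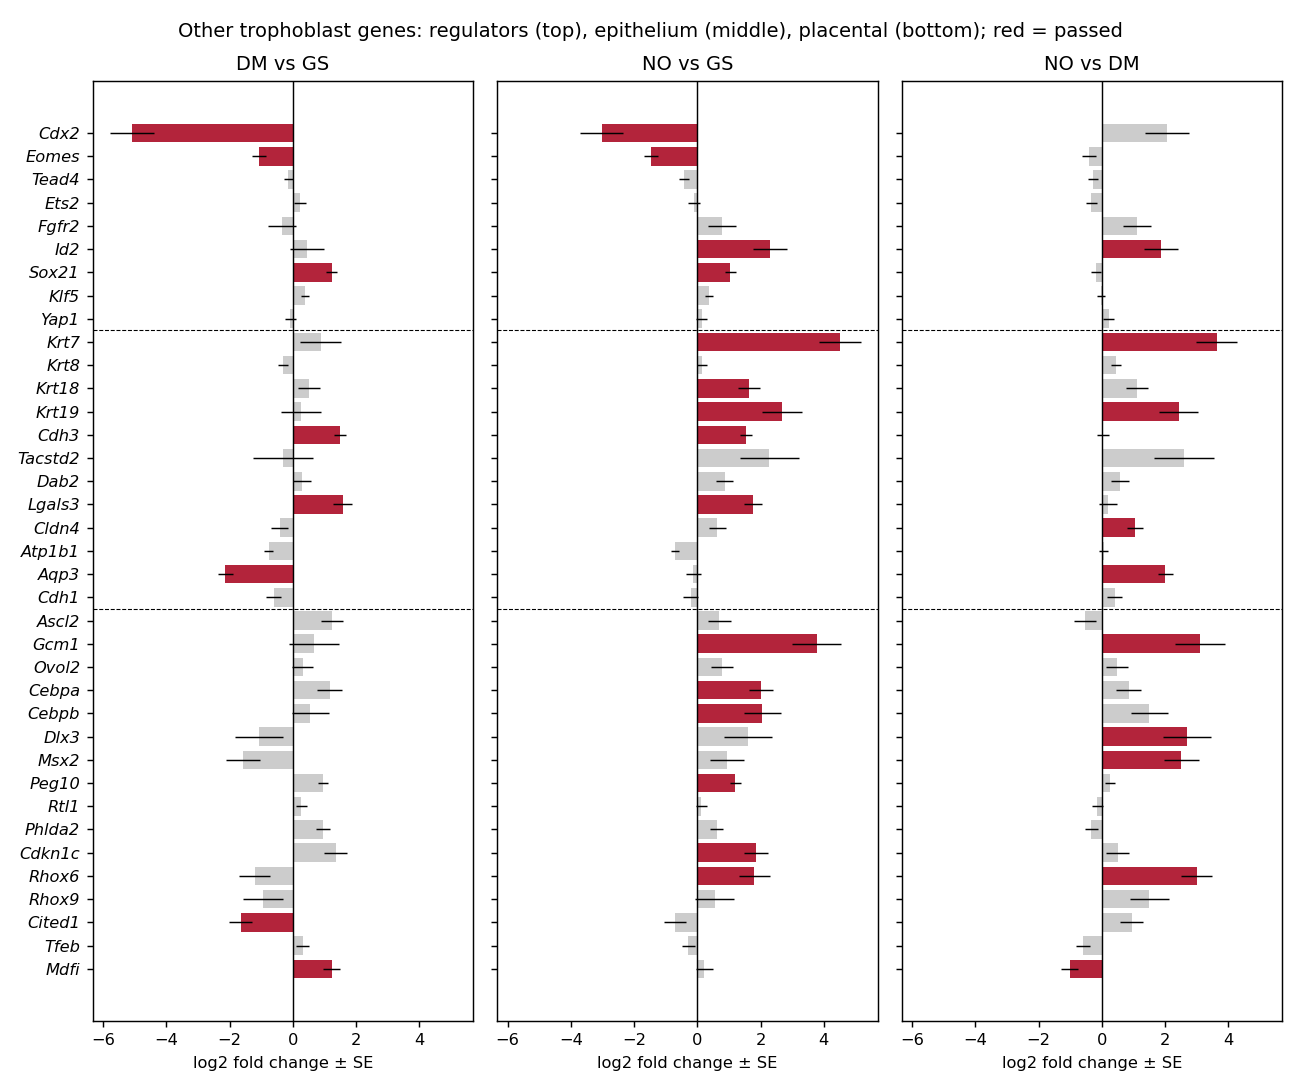
Log2 fold change of the 37 tested genes of the 3 trophoblast lists in each comparison, as bars with the SE, with red bars for called genes and dashed lines between the lists. From DM to NO, *Krt7*, *Gcm1* and *Rhox6* reach furthest, and *Mdfi* is the called gene below 0.

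Since these factors also act in other lineages, markers of 5 such lineages were measured in the same samples. Of the surface ectoderm list, 6 of 8 were tested, and *Krt5*, *Perp* and *Sfn* were called higher from DM to NO. The basal keratin *Krt5* was at 0 in every GS sample, had 0, 0 and 5 normalised counts in DM and 26, 215 and 72 in NO, and passed the filter on low values through NO, so its call is a description. *Perp*, a desmosomal membrane protein and p53 target, had 197, 210 and 241 in DM and 901, 4411 and 2165 in NO. Of its other defining markers, *Krt14* had 0 or 1 in all samples but NO replicate 2, which had 19, and *Trp63* had 5 to 14 in GS, 0 or 1 in DM and 2 to 4 in NO. The summed level of the list was 1034 to 1200 in GS, 1226 to 1394 in DM and 2149 to 7592 in NO, and *Grhl2* was called higher than GS in DM and in NO. From DM to NO, 4 of the 6 tested genes were higher, while *Grhl2* and *Krt17* went the other way. *Grhl2* had 343, 309 and 379 in DM and 128, 331 and 200 in NO (-0.745, adjusted p = 0.102). Without NO replicate 2 it was called lower (-1.093, adjusted p = 0.0142). For *Krt17* the difference was -0.416 (adjusted p = 0.322). *Sfn* was also called higher in NO than in GS (1.35), though not without NO replicate 2 (0.95). Of the extraembryonic and lateral mesoderm list, 9 of 12 were tested. *Tbx4*, a limb and allantois factor, rose by 3.06 from DM to NO (adjusted p = 0.0128) and was called without NO replicate 2 as well. *T*, the brachyury gene, gave 137, 183 and 131 (GS), 10, 1 and 0 (DM) and 8, 28 and 22 (NO). It fell by 3.04 from GS to NO (adjusted p = 0.0151), and the DM to NO difference of 2.70 (adjusted p = 0.0342) was 2.36 without NO replicate 2 (adjusted p = 0.108), no longer called. The summed level was 877 to 1154 in GS, and its ranges in DM, 1311 to 2055, and in NO, 1050 to 1403, overlapped. Most of that sum was *Bmp4*, with 633 to 1956 per sample. From DM to NO *Bmp4* fell by 0.80 (adjusted p = 0.0237), under the fold change needed for a call. *Lmo2* was not called between DM and NO either. From GS to NO, beside the fall of *T*, limma called *Tbx4* (4.75, adjusted p = 0.00103), *Lmo2* (3.49, adjusted p = 0.00486) and *Mesp1* (3.08, adjusted p = 0.0272) higher. Without NO replicate 2, *Tbx4* and *Lmo2* were still called, and *Mesp1* was not (2.49, adjusted p = 0.105). The median log2 fold change of the list from DM to NO was 1.25, with 7 of the 9 tested genes higher. The part of these markers in the values of *Hand1*, *Tfap2c* and *Gata3* was not tested.

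Of the 8 primordial germ cell markers, *Kit* and *Dppa3* were called lower than GS in DM and in NO, and *Dazl* was called higher from DM to NO by 1.27 (adjusted p = 0.0248). The *Dazl* call was lost without NO replicate 2 (1.09, adjusted p = 0.0786). Their summed level was 8848 to 9436 in GS, 4492 to 4852 in DM and 3712 to 5109 in NO. Of the neural crest list, 5 of 8 were tested, and *Ets1* (2.92, adjusted p = 0.0187) and *Twist1* (1.42, adjusted p = 0.031) were called higher in NO than in GS. Without NO replicate 2, *Ets1* was at 1.94 (adjusted p = 0.0407) and *Twist1*, at 1.125 (adjusted p = 0.105), was no longer called. Between DM and NO, limma called 0 genes of the list, with 2 higher and 0 lower at an unadjusted p under 0.05. The summed level of the list was 253 to 494 in GS, 527 to 647 in DM and 504 to 819 in NO. Of the primitive endoderm list, 5 of 8 were tested. *Gata6*, its early factor, rose from 7, 6 and 11 in DM to 20, 234 and 90 in NO, by 3.13 (adjusted p = 0.0181), and was called without NO replicate 2 as well (2.32, adjusted p = 0.0498). *Lama1*, a laminin gene, was called lower than GS in DM (-1.29) and in NO (-1.09), the latter not without NO replicate 2, where the value was -0.92. The summed level of the list was 7523 to 8325 in GS, 2895 to 3581 in DM and 3539 to 4554 in NO, most of it *Lama1*, with 2732 to 8149 per sample. *Utf1* was the embryonic stem cell marker called, higher in DM than in GS (2.18) and lower in NO than in DM (-1.59). Under the fold change needed for a call, *Nanog* was lower in DM than in GS (-0.80, adjusted p = 0.0311, limma). From DM to NO *Pou5f1* was lower (-0.95, adjusted p = 0.0349) and *Tbx3* higher (0.47, adjusted p = 0.0383). Without NO replicate 2 these were -0.57 (adjusted p = 0.0423) and 0.50 (adjusted p = 0.0531).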

How the data were processed

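Total RNA was depleted of ribosomal RNA and sequenced on an Ion Torrent Proton. The authors cleaned reads with Reaper, checked them with FastQC 0.11.2, aligned them to GRCm38 with STAR 2.4.0a and counted them with featureCounts 1.4.5-p1, leaving out reads over several genes or positions. The deposited values are a score, counts that the authors divided by DESeq2 size factors and rounded to whole numbers. No count model was therefore fitted here. The summed column of the table was not used. Reads per sample were estimated here from the values that rounding leaves out or fills unevenly among low integers.

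From these values, log2(value + 1) was fitted with limma 3.58.1 in R 4.3.3 (empirical Bayes with a mean-variance trend) in 1 model of all 9 samples, for genes with a mean above 5. Calls needed an adjusted p under 0.05 (Benjamini-Hochberg, two-sided) and a log2 fold change of at least 1. In simulated data for DM against GS, 99.5% of 200 changed genes were recovered and 1.5% of calls were of unchanged genes, among 17974 tested. Only genes well above the filter were changed there, by more than *Gata3* rose from DM to NO. All genes had the same spread beyond counting error, and no sample was an outlier. These rates therefore do not extend to genes near the filter, to smaller changes or to the spread seen inside NO. Exons came from GENCODE on the same build and promoters from RefSeq (GRCm38.p6). The 7 genes and the 9 lists of 97 genes were chosen with earlier results of these data known. Named were the 7 genes, *Cdx2*, *Eomes* and *Tead4*, every called gene of the regulator list, and up to 4 called genes of each other list by adjusted p; others are marked in the text. The genes most alike in pattern were the 3 with the highest correlation for each tested regulator, 1 of which is not reported here. Samples were grouped by their labels. Deviations from the group means of NO and DM samples with the same number correlated by 0.16, 0.17 and 0.30 (-0.23 to 0.05 for pairs with GS). Samples with different numbers were not correlated, so these values are at most a hint and cannot show that the numbers pair the samples. Intervals and read limits cover counting error or the spread of samples only. Alternatives covered the filter, the pseudocount, the scaling, the weights, the thresholds, the replicate block, fits of 6 samples and leaving out each sample.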

Additional observations from a re-analysis of the deposited data

How the results depend on the processing

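Of the calls of the trophoblast regulators, *Tfap2c* and *Gata2* held in each of the 21 alternative fits that keep the thresholds. *Gata3* between DM and NO lost its call with only the 6 samples compared (adjusted p = 0.0528; 0.0392 and called with the replicate block in that fit) and without DM replicate 2. *Hand1* between DM and NO lost it in 13 fits (adjusted p = 0.0944 with only the 6 samples, 0.0348 and called with the block added), and between GS and NO with vooma weights (adjusted p = 0.0597). *Tfap2a* between GS and DM was called under quantile normalisation (-1.05, adjusted p = 0.0478). *Elf5* between GS and NO turned from -0.02 to 0.07 with equal totals, 0.041 with equal totals without the top 1% of genes, 0.43 without GS replicate 1 and 0.26 without NO replicate 2, with a range of -0.315 to 0.428 over the fits that left out a sample. The causes were not tested. Depth limits *Elf5*, *Plac1* and the GS level of *Hand1*. With the replicate block, adjusted p-values between DM and NO were 0.0244 for *Gata3*, 0.00361 for *Tfap2c* and 0.0352 for *Hand1*, and no call of these genes changed.

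Of the regulators, 1 was called from GS to NO with a minimum mean of 50, with vooma weights or with a log2 fold change of at least 2 (2 in every fit that left out a sample), and 1 from DM to NO with a minimum mean of 50 or with only the 6 samples compared (1 to 3 in fits that left out a sample). With the minimum mean of 50, 3 of the regulators were tested, and *Gata3*, *Hand1* and *Elf5* were not. Among all genes, it gave 505, 1206 and 936 calls for DM against GS, NO against GS and NO against DM (763, 2127 and 1552 as reported). No minimum fold change gave 1215, 3640 and 2587, and a log2 fold change of at least 2 gave 242, 926 and 660. With only the 6 samples compared, NO against DM gave 912, and 1591 with the replicate block added, a fit chosen after seeing the data. Leaving out a sample gave 509 to 962, 1455 to 2831 and 806 to 2512. Of the listed trophoblast genes, a log2 fold change of at least 2 gave 2 for DM against GS and 7 for NO against GS, and leaving out a sample gave 5 to 12, 11 to 17 and 4 to 17. Between DM and NO they numbered 6 with a minimum mean of 50, 4 with no mean-variance trend, 6 with vooma weights and 6 with only the 6 samples compared (12 with the block added). Quantile normalisation called 1304 higher and 629 lower from GS to NO (1830 and 297 as reported) and 959 and 514 from DM to NO (1231 and 321 as reported).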
